A study of Homo sapiens with 14 samples.

Results

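Interferon-stimulated genes are the genes that cells switch on when interferons bind their receptors. The 9 described here, chosen by symbol, were ISG15, IFI6, IFI27, IFIT1, IFIT3, OAS1, MX1, IRF1 and IFIH1, out of 36601 genes in the single-cell matrices and 60624 in the bulk tables. The libraries came from SW620, a colorectal cancer cell line grown from a lymph node metastasis, in long-term culture without passage. SW620-TET2CD cells overexpress the catalytic domain of TET2, the enzyme that oxidises 5-methylcytosine in DNA, and the cells labelled SW620 are described in the study as carrying an empty FLAG vector. Each of these lines had 1 single-cell library on days 6, 9, 12 and 15 and 2 bulk libraries on day 15, from cells inside and outside the colonies. Whole bulk cultures of SW620 and of SW480, a line from the primary tumor of the same patient, were harvested on day 6. Both SW620 and SW620-TET2CD cells thus share the tumor, the culture and the lack of passage, and differ by the transgene and its vector. By staining in the study, the overexpressed domain lay mostly in the cytoplasm up to day 9. On days 12 and 15 it was nuclear in cells outside the colonies and still cytoplasmic inside them. Its place in the sequenced cells was not measured. Every condition had 1 library, so p-values over days measure the spread between days and not the spread between cultures.

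Type I and type III interferons act through the kinases JAK1 and TYK2 on a complex that holds STAT2 and IRF9 and binds a sequence called the interferon-stimulated response element (ISRE). Interferon-gamma acts through another sequence, the gamma-activated site (GAS). The products of the responding genes block viral replication, and many tumor cells keep a low level of them without any infection. IFIH1 (MDA5) senses double-stranded RNA, and IRF1 is a transcription factor that interferon-gamma induces. ISG15 is a ubiquitin-like protein that is joined to other proteins, IFIT1 and IFIT3 bind each other and foreign RNA, OAS1 makes the oligoadenylates that activate RNase L, and MX1 is a GTPase that traps viral components. IFI6 and IFI27 are small membrane proteins of one family.

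The stretches of 180 bases before the annotated start are given for 5 of the genes, because the line comparison turned on IFI27 and OAS1, the comparison of late with early days on IRF1 and IFIT1, and ISG15 was the most abundant of the 9. They come from RefSeq (GRCh38.p14), run 5′ to 3′ on the strand of the gene, and carry ISRE core matches (GAAA, any 2 bases, GAAA, on either strand) in capitals. In OAS1 and IRF1, which have no match to this ISRE pattern in their windows, the capitals mark the GAS match (TTCNNNGAA). Near its end the OAS1 stretch holds GAAA repeats with a shorter gap between them, which the pattern does not count. The stretch of IFI27 is chr14:94110556-94110735 (+), that of OAS1 is chr12:112906782-112906961 (+), that of IFIT1 is chr10:89392443-89392622 (+), that of ISG15 is chr1:1013317-1013496 (+) and that of IRF1 is chr5:132490774-132490953 (-).
IFI27: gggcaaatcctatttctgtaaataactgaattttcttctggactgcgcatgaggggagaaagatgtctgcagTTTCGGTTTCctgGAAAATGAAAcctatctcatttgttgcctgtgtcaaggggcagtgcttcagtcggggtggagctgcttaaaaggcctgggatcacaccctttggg
OAS1: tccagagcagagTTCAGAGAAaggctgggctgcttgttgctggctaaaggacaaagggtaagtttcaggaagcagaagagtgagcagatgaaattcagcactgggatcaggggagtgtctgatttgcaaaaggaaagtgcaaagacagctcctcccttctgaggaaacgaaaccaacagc
IFIT1: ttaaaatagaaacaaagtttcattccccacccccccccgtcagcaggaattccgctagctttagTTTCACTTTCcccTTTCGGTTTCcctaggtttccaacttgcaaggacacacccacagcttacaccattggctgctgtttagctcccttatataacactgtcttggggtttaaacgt
ISG15: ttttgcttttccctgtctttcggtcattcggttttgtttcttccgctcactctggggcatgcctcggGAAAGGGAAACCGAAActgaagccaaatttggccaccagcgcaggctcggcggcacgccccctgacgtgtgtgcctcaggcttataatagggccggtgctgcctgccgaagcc
IRF1: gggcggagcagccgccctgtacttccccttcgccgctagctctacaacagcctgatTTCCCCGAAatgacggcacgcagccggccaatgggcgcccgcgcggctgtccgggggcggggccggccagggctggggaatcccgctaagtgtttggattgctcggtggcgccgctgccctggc

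All 9 genes had RefSeq windows of 300 bases around a start site, 13 windows in all. An ISRE core lay in at least 1 window of 7 genes (all but OAS1 and IRF1), in 10 of the 13 windows. The background was the first window of each gene, 27305 in all, of which 3.65% held one. Members were scored over all their windows, so the counts are not strictly like for like. A GAS match lay in windows of IFI27, OAS1, MX1 and IRF1, against 7.88% of the background windows, and the GAS match of IFI27 overlapped both of its ISRE cores. CpG dinucleotides, the sites on which TET2 acts, numbered 1 in the window of OAS1 and 4 in those of IFIT1 and the first window of IFI27. They numbered 20 in ISG15 and 36 in IRF1, where the median of the background windows was 14. DNA methylation was not measured in these libraries. A match of letters is not a binding site, and the lack of a match does not show that a site is absent.

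In the GENCODE annotation of GRCh38, IFI27 lies at chr14:94104836-94116695 (+) with no overlapping gene, and IFIH1 has none either. OAS1 lies at chr12:112905856-112933219 (+) and overlaps a long non-coding RNA on the opposite strand that carries no symbol. IFIT1 and IFIT3 overlap LIPA, MX1 overlaps TMPRSS2, IRF1 overlaps IRF1-AS1, and ISG15 and IFI6 overlap long non-coding RNAs without a symbol, in each case on the opposite strand. IFI6 also overlaps LINC02574 and IFIT3 overlaps IFIT6P on its own strand. No source used here gives the strand setting of the bulk counting, so reads of these pairs may not be told apart in bulk.

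The single-cell data held 67056 barcodes, of which 48282 passed the limits on genes, UMIs (unique molecular identifiers, 1 per captured transcript) and mitochondrial share. Kept UMIs numbered 48186195 to 74185723 per library, and bulk expected counts summed to between 16470176 and 25840563. Pairs of libraries shared 1 to 23 kept barcodes. The 7 epithelial markers summed to between 8099 and 12240 CPM (UMIs of a gene scaled to the same total in each library) in every library. The 6 leukocyte markers summed to between 7.48 and 57.6 CPM, nearly all from LYZ (7204 UMIs over the 8 libraries) and CD68 (3876 UMIs), while CD14 had 109 UMIs, CD3E 7, PTPRC, the pan-leukocyte gene, 3 and MS4A1 none. The 5 fibroblast markers summed to between 8.37 and 28.7 CPM, most of it from LUM (7078 UMIs), and COL1A2 had 1 UMI. The 3 markers of plasmacytoid dendritic cells were at 44 UMIs for IL3RA, 1 for CLEC4C and none for LILRA4. The transgene was seen as TET2: its level was 2.11 to 3.90 CPM in SW620 and 106.6, 59.5, 40.2 and 41.6 CPM in SW620-TET2CD on days 6, 9, 12 and 15, and the groups did not overlap (log2 fold change 4.27, edgeR adjusted p = 1.33e-05). UMIs of the transgene and of the endogenous gene cannot be told apart.

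The first comparison asked whether the interferon-stimulated genes differed between the lines. IFI27 was higher and OAS1 lower in SW620-TET2CD, and the other 7 genes did not pass the test. The members did not move as a group: 3 had a higher and 6 a lower fitted level in SW620-TET2CD, with a median log2 fold change of -0.08, beside 0.00 over all genes tested. Of 16526 genes tested with edgeR and day as a term, 696 (4.21%) passed an adjusted p of 0.05, 391 (2.37%) higher and 305 (1.85%) lower in SW620-TET2CD.

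IFI27 was measured at 0.650, 0.588, 0.493 and 1.27 CPM in SW620 on days 6, 9, 12 and 15. In SW620-TET2CD it was measured at 1.77, 2.29, 1.33 and 1.45 CPM on the same days. In these CPM, SW620-TET2CD was higher on 4 of 4 days and the groups did not overlap. On day 15, however, the libraries lay close together and their counting intervals overlapped. The fit also scales each library by a normalization factor (TMM), about 0.951 for SW620 and 1.17 for SW620-TET2CD on day 15. Scaled in this way, SW620 would be the higher line on day 15 and the groups would overlap. The means were 0.750 ± 0.351 (SD over days, n = 4) and 1.71 ± 0.428 CPM, and the log2 fold change was 1.13 (SE 0.28, edgeR adjusted p = 0.0475). The call was lost when either library of day 6, 9 or 12 was left out (log2 fold change 0.88 to 1.05, adjusted p 0.104 to 0.233), and it held without either library of day 15, where the log2 fold change was 1.57 to 1.58. With no day term, 46 genes in all were called and neither IFI27 (1.08) nor OAS1 (-0.57) was among them. These levels are low, at 25 to 67 UMIs per SW620 library and 64 to 166 per SW620-TET2CD library. No SW620 cell held more than 2 IFI27 UMIs, whereas the highest count in an SW620-TET2CD cell was 11, 9, 11 and 5 from day 6 to day 15.

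OAS1 was measured at 11.2, 9.59, 10.7 and 10.9 CPM in SW620. It was measured at 7.82, 6.77, 9.65 and 6.43 CPM in SW620-TET2CD, lower on 4 of 4 days. The ranges touched, since the SW620-TET2CD library of day 12 lay just above the SW620 library of day 9. The log2 fold change was -0.58 (SE 0.13, edgeR adjusted p = 0.0276). It lost its call without either library of day 6 or day 9 (-0.60 to -0.58, adjusted p 0.0769 to 0.119) or without the SW620 library of day 15 (-0.43, adjusted p = 0.0523).

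ISG15 was measured at 111, 134, 119 and 182 CPM in SW620. The SW620-TET2CD libraries gave 95.6, 121, 118 and 109 CPM. On 4 of 4 days the SW620-TET2CD library was the lower one, but on day 12 by little, and the largest gap came from the SW620 library of day 15. The log2 fold change of -0.38 (SE 0.15) did not pass the test (edgeR adjusted p = 0.243), and it was -0.16 without that library.

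MX1 was measured at 2.19, 2.50, 2.29 and 1.74 CPM in SW620, and the SW620-TET2CD libraries at 3.41, 2.26, 2.28 and 2.70 CPM. The lines overlapped and SW620-TET2CD was higher on 2 of 4 days. The fitted log2 fold changes of IFI6, IFIT1, IFIT3, MX1, IRF1 and IFIH1 between the lines ranged from -0.17 (IFIT1) to 0.19 (MX1), with adjusted p of 0.681 to 0.934. In CPM, without the normalization factors of the fit, each of these 6 was higher on some days and lower on others. For IFIT3 the higher days were 12 and 15, and those factors would offset both.

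**Figure D1:**
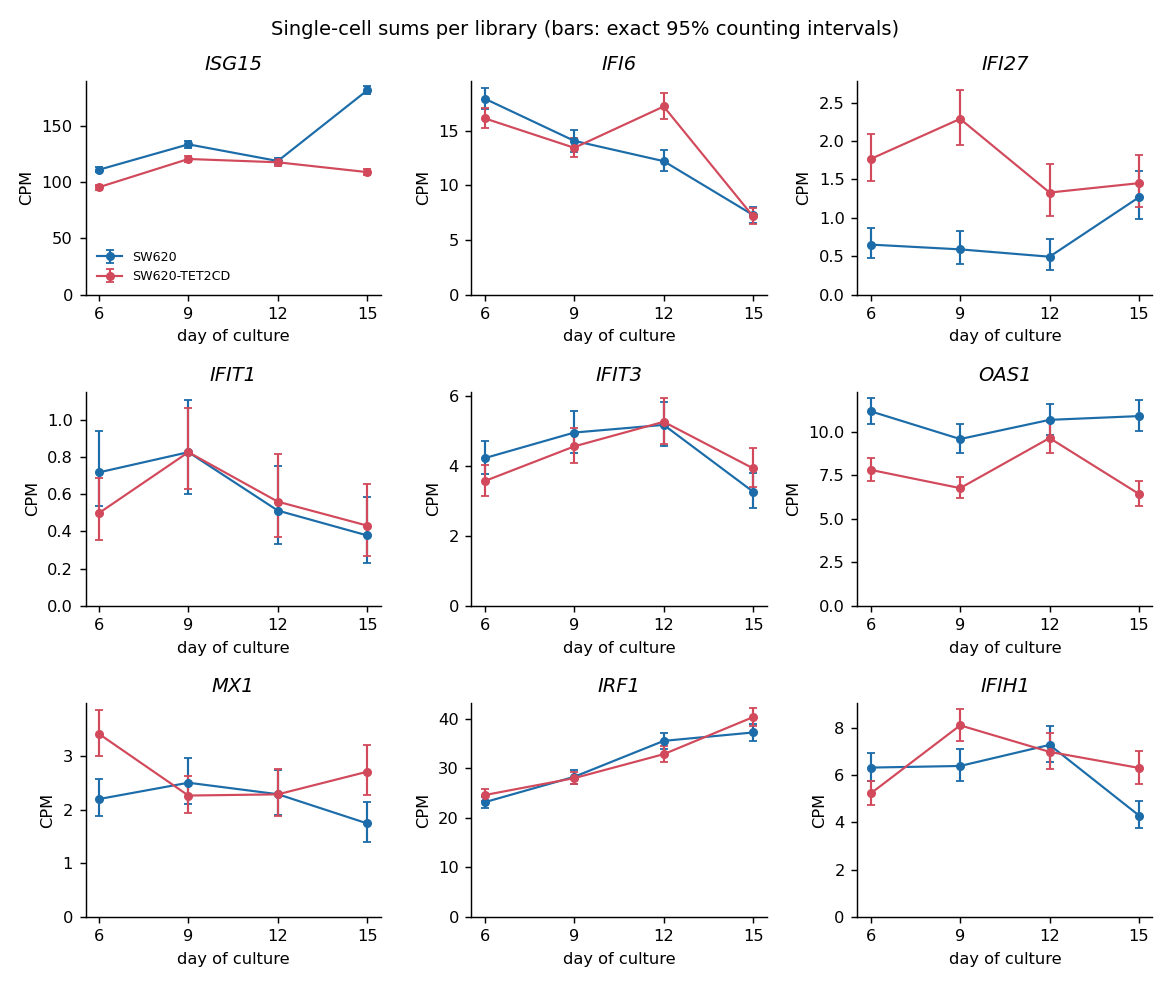
Level of each gene in CPM (vertical axis, from 0) against day of culture (horizontal axis) in the single-cell sums, 1 library per point, SW620 in blue and SW620-TET2CD in red, with exact 95% intervals that cover counting error only. The CPM lack the normalization factors of the fits. IFI27 lies higher and OAS1 lower in SW620-TET2CD on 4 of 4 days, IRF1 is higher on days 12 and 15 in both lines, and ISG15 is highest in SW620 on day 15 at 182 CPM.

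Around the members, 40 of 52 other interferon-stimulated genes were tested. LY6E, a surface protein, fell by 0.44 on the log2 scale in SW620-TET2CD (edgeR adjusted p = 0.0298), and the other 39 did not pass. Among 15 interferon-gamma targets tested, GBP2, a guanylate-binding GTPase, fell by 0.94 (adjusted p = 0.0203). Among 7 feedback regulators tested, SOCS3, which inhibits JAK kinases, fell by 0.93 (adjusted p = 0.0192). None of 6 receptors, 7 JAK-STAT genes, 8 sensors and adaptors or 5 IRF factors passed. Of the 21 interferon genes themselves, 19 had no UMI in any kept cell and all 21 together had 75, of which IFNE, an epithelial type I interferon, held 71. In the leukocyte list, LYZ and CD68, which other cells also express, differed between the lines: LYZ was higher by 0.83 and CD68 lower by 1.08 on the log2 scale in SW620-TET2CD (edgeR adjusted p = 0.00811 and 0.00960). None of 4 fibroblast markers tested passed. The part of these genes in the members' differences was not tested.

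The TET2 UMIs allowed a comparison within the SW620-TET2CD libraries, where TET2 was detected on days 6, 9, 12 and 15 in 27.9%, 24.1%, 19.6% and 17.2% of kept cells. At full depth, IFI27, MX1 and IFIH1 were higher, and ISG15 lower, in the cells with a TET2 UMI in 4 of 4 libraries. After thinning, which also moved cells between the 2 groups, this held for ISG15, not for MX1 or IFIH1, and could not be assessed for IFI27. IFI27 in cells with a TET2 UMI was at 3.64, 5.67, 2.53 and 1.69 CPM. In cells without one it was at 0.963, 1.14, 1.02 and 1.39 CPM. MX1 was at 6.47, 3.22, 3.13 and 3.98 CPM with a TET2 UMI, and at 2.10, 1.94, 2.06 and 2.39 CPM without one. For MX1 the groups did not overlap, and for IFI27 they did not overlap either, but on day 15 the gap was small. The mean log2 ratio was 1.46 ± 0.88 (SD, n = 4 libraries) for IFI27, 0.92 ± 0.47 for MX1, 0.25 ± 0.06 for IFIH1 and -0.27 ± 0.08 for ISG15. With 4 libraries, the exact two-sided sign-flip permutation test cannot give a p under 0.125. These 4 genes reached that value, and their p adjusted over the 9 genes was 0.281. For IFI6, IFIT1, IFIT3, OAS1 and IRF1 the direction differed between libraries.

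**Figure D2:**
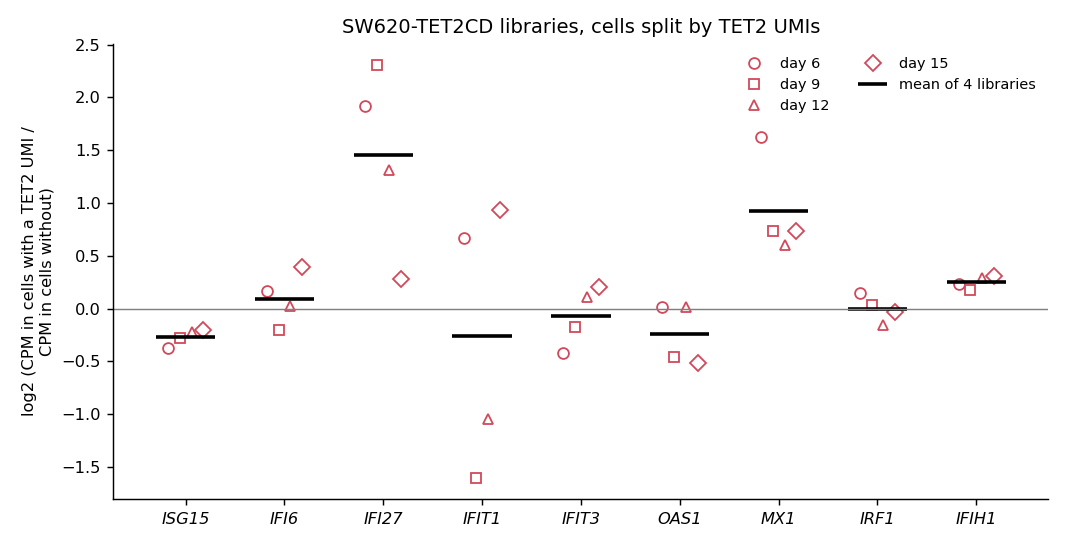
Log2 ratio of CPM in cells with at least 1 TET2 UMI over cells with none (vertical axis, without thinning) for each of the 9 genes, 1 point per SW620-TET2CD library with the day as symbol and the mean as a black line. IFI27 and MX1 lie above 0 in 4 of 4 libraries with means of 1.46 and 0.92, and ISG15 lies below 0 in 4 of 4 with a mean of -0.27.

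Pooled over the 4 libraries, IFI27 was at 1.12 CPM in cells with no TET2 UMI (exact 95% Poisson interval 0.975 to 1.29), 3.01 with 1 (2.35 to 3.80) and 4.22 with 2 or more (3.58 to 4.93). MX1 was at 2.11, 3.40 and 5.25 CPM in the same cells, and ISG15 at 116, 102 and 88.6 CPM. OAS1 was at 7.81, 6.71 and 6.98 CPM. Within libraries the order of the 3 classes differed for IFI27, which was higher at each step on day 9 alone, at 1.14, 2.49 and 7.56 CPM. On day 6 it was at 0.963, 3.79 and 3.57 CPM, on day 12 at 1.02, 4.75 and 0.881 CPM and on day 15 at 1.39, 1.30 and 2.14 CPM. With 2 or more TET2 UMIs, IFI27 was thus higher than with none in 3 of 4 libraries. MX1 was higher at each step on days 6, 9 and 15 and at 2.06, 3.32 and 2.99 CPM on day 12, and ISG15 was lower at each step in 4 of 4 libraries. In the SW620 libraries, where a TET2 UMI marks the endogenous transcript, IFI27 was at 1.33 CPM in the 607 cells with one (9 UMIs, interval 0.608 to 2.52) and 0.724 CPM in the rest. In the same SW620 cells MX1 was at 2.81 CPM (19 UMIs, interval 1.69 to 4.38) against 2.16 in the rest. IFIH1 was at 7.24 against 6.06 CPM there and ISG15 at 132 against 134 CPM. These intervals cover counting error only. Cells with a TET2 UMI also held more UMIs (medians of 9262 against 8405 on day 6 and 9694 against 8042 on day 15), so the split was repeated with every cell, its TET2 UMIs included, thinned to 2000 UMIs. The mean log2 ratio was then 0.61 ± 0.81 (SD, n = 4 libraries) for MX1 and 0.16 ± 0.86 for IFIH1, each higher in 3 of 4 libraries, and -0.49 ± 0.46 for ISG15, lower in 4 of 4. IFI27 was too sparse to compare after thinning, with 0 to 3 UMIs in the cells with a TET2 UMI, and MX1 rested on 2 UMIs in those cells on days 9, 12 and 15. The cells with a TET2 UMI fell from 2274 to 1058 on day 6 and from 1014 to 382 on day 15. Most of the others then counted as cells without one, so this check cannot separate depth from the blurred split.

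Setting only the SW620-TET2CD cells with no TET2 UMI against all SW620 cells, no member passed among 346 genes called (2.12%). IFI27 then had a log2 fold change of 0.54 (edgeR adjusted p = 0.332) and OAS1 of -0.52 (adjusted p = 0.0542), beside 1.13 and -0.58 with all SW620-TET2CD cells. Setting the SW620-TET2CD cells with a TET2 UMI against all SW620 cells, a choice made after the data had been seen, 4 members passed among 1626 genes called (10.3%). IFI27 rose by 2.06 (edgeR adjusted p = 0.00434) and MX1 by 0.78 (adjusted p = 0.0461). ISG15 fell by 0.64 (adjusted p = 0.0131) and OAS1 by 0.79 (adjusted p = 0.0137).

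How many of the members a single cell held was counted next. With each cell thinned to 2000 UMIs, the share of cells with at least 2 of the 9 genes was 3.09%, 3.19%, 3.74% and 4.40% in SW620 and 2.51%, 3.04%, 3.28% and 3.30% in SW620-TET2CD on days 6, 9, 12 and 15. SW620-TET2CD was lower on 4 of 4 days, by 0.569 percentage points on average (SD 0.394), but the lines overlapped and p was 0.125 in the exact two-sided sign-flip permutation test, the smallest it can give. The thinning left out 18 to 89 cells per library. Without thinning, at unequal depths, the shares averaged 35.8% and 33.8%, and SW620-TET2CD was higher on 1 of 4 days. Thinned shares for OAS1 were 1.95%, 1.98%, 2.46% and 2.15% in SW620 and 1.49%, 1.40%, 1.39% and 1.52% in SW620-TET2CD. Here the lines did not overlap. No cell type that lacks the 9 genes was present, so the share that free RNA gives was not measured.

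The second comparison set days 12 and 15 against days 6 and 9. IRF1 rose and IFIT1 fell, and the other 7 genes did not pass. In this fit, and in the interaction fit below, the libraries of both lines from the same day counted as separate. The p-values of these fits thus treat the days as better replicated than they were. IRF1 was measured at 23.2, 28.3, 35.6 and 37.3 CPM in SW620 and at 24.6, 28.0, 32.9 and 40.4 CPM in SW620-TET2CD on days 6, 9, 12 and 15. Every late library lay above every early one, and the log2 fold change was 0.38 (SE 0.12, edgeR adjusted p = 0.0169). This comparison called 9587 of 16526 genes (58%), 4861 higher (29.4%) and 4726 lower (28.6%), so that 2 called of 9 members is below the background. With upper-quartile factors the split was 6250 higher and 3636 lower and the median of all genes shifted by 0.17, from 0.04 to 0.21, and IRF1 was then at 0.55.

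IFIT1 was measured at 0.718, 0.827, 0.512 and 0.378 CPM in SW620 and at 0.499, 0.827, 0.560 and 0.431 CPM in SW620-TET2CD, from 20 to 60 UMIs per library. Early and late libraries overlapped through the SW620-TET2CD library of day 6. The log2 fold change was -0.71 (SE 0.26, edgeR adjusted p = 0.0353), and the call was lost with DESeq2 (-0.71, adjusted p = 0.0503), with upper-quartile factors (-0.54, adjusted p = 0.104), without the upper limits on cells (-0.52, adjusted p = 0.133), with every barcode (-0.51, adjusted p = 0.143) and without the SW620 library of any day or the SW620-TET2CD library of day 9 or 15 (-0.73 to -0.60, adjusted p 0.0687 to 0.120). IRF1 lost its call without either library of day 6 (0.31 and 0.36, adjusted p = 0.0740 and 0.0548), with every barcode (0.32, adjusted p = 0.0576) and without a filter on low counts (0.33, adjusted p = 0.0510).

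IFI6 was measured at 17.9, 14.1, 12.2 and 7.28 CPM in SW620 and at 16.1, 13.4, 17.2 and 7.15 CPM in SW620-TET2CD. Both lines were lowest on day 15, and the SW620-TET2CD library of day 12 stood among the early ones. Its log2 fold change of -0.60 (SE 0.26) missed the threshold with edgeR (adjusted p = 0.0723), passed with DESeq2 (adjusted p = 0.0435), and was -0.97 (edgeR adjusted p = 0.00107) without that library. IFIT3 was measured between 3.25 and 5.25 CPM and IFIH1 between 4.29 and 8.12 CPM in the 8 libraries, and the SW620 library of day 15 was the lowest for both.

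**Figure D3:**
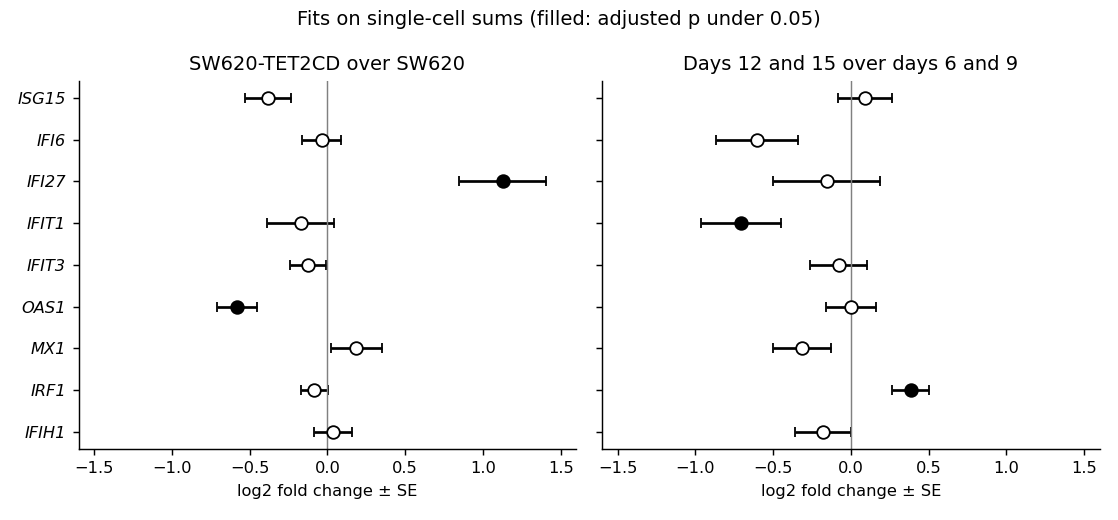
Log2 fold changes (horizontal axis, bars are SE) of the 9 genes between the lines (left) and between late and early days (right) in the single-cell sums, with filled points for an adjusted p under 0.05. IFI27 (1.13) and OAS1 (-0.58) are filled on the left, and IFIT1 (-0.71) and IRF1 (0.38) on the right.

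Markers of other cell types differed between the same days. The leukocyte list summed to 7.48 to 17.4 CPM on days 6 and 9 and to 23.8 to 57.6 CPM on days 12 and 15, and 2 of its 3 tested genes rose, CD68 by 3.10 and LYZ by 1.07 on the log2 scale. The fibroblast list summed to 16.6 to 28.7 CPM on the early and 8.37 to 12.9 CPM on the late days, where DCN rose by 2.45 and COL1A1 by 0.76 and LUM fell by 1.39. Between 1 and 3 of the 6 leukocyte markers were at 0 in each library, and the part of these genes in the members' values was not tested.

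Dividing cells became fewer over the same days. The share of kept cells with no UMI of the 6 division markers was 8.5% to 20.2% on days 6 and 9 and 61.0% to 77.4% on days 12 and 15, and all 6 markers fell (median log2 fold change -2.53). In the cells with no such UMI, the fit called 5953 genes (41%), and 4 members passed: IRF1 rose by 0.41 (edgeR adjusted p = 0.0250), while IFIT1 fell by 1.65 (adjusted p = 0.00534), IFI6 by 1.07 (adjusted p = 0.0149) and IFIH1 by 0.62 (adjusted p = 0.0251). IFIT1 rested here on 5 to 13 UMIs per library on days 6 and 9 and on 8 to 17 on days 12 and 15. In all kept cells the values were -0.71 for IFIT1 and -0.60 for IFI6, and the difference between the fits was not tested. Between the lines, the same cells gave OAS1 at -0.61 (adjusted p = 0.0313) and IFI27 at 1.03, which did not pass (adjusted p = 0.170), among 468 genes called (3.22%).

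Of 40 other interferon-stimulated genes tested, 12 rose and 13 fell between early and late days, close to the background of 29.4% higher and 28.6% lower over all genes, with a median log2 fold change of 0.00 beside 0.04. These counts, and those of the smaller lists, are descriptions against that background. By the rule used for the line comparison, the genes with the largest changes are named, a use of it added after the values were seen. ISG20, an exonuclease, rose by 3.14, UBE2L6, the ISG15-conjugating enzyme, by 2.27, OASL by 2.21 and IFI35 by 1.55. OAS2 fell by 2.66, OAS3 by 2.51, SAMHD1, a dNTP hydrolase, by 1.57 and PLSCR1 by 1.32. USP18, the protease that removes ISG15 and dampens receptor signaling, fell by 2.76. OAS1 itself did not follow OAS2 and OAS3, at a log2 fold change of 0.00 (SE 0.16, edgeR adjusted p = 0.997).

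Of 7 JAK-STAT genes, 4 rose (IRF9 by 2.06, JAK1 by 0.83, STAT2 by 0.81 and STAT3 by 0.41), while the kinase TYK2 fell by 0.58. Of 6 receptors, 3 rose (IFNGR2 by 1.00, IFNGR1 by 0.56 and IL10RB by 0.34) and none fell. Of the interferon genes IFNE alone had enough UMIs to be tested, and it rose by 2.57, from 1 to 5 UMIs per early library and 10 to 25 per late one. Of 15 interferon-gamma targets, 5 rose, led by GBP2 at 2.32, and 4 fell, led by PSME2, a proteasome activator subunit, at -1.29. Among 7 feedback regulators, SOCS3 rose by 1.85, SOCS1 by 1.07 and PIAS1 by 0.47 and USP18 fell. Of 5 IRF factors, IRF2 rose by 0.62 and IRF3 fell by 0.34. Of 8 sensors and adaptors, IKBKE fell by 1.01 and EIF2AK2 (PKR) by 0.39. All of these passed an edgeR adjusted p of 0.05.

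**Figure D4:**
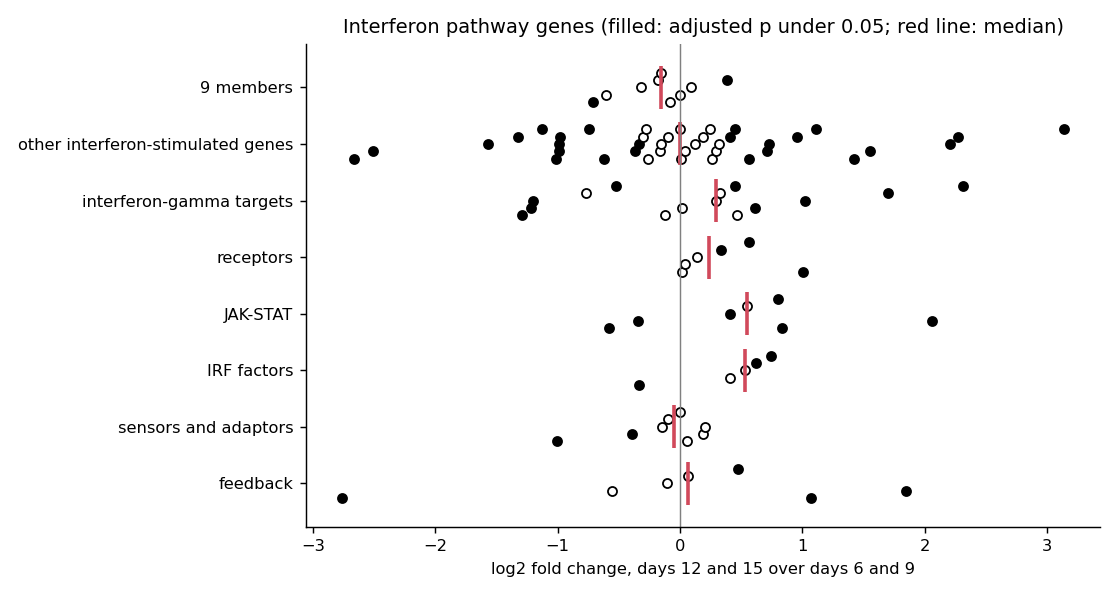
Log2 fold change between late and early days (horizontal axis) for each tested gene of the interferon pathway lists (rows, with points spread vertically for legibility), filled for an adjusted p under 0.05, with the list median in red. The 9 members lie between -0.71 and 0.38 and the 40 other interferon-stimulated genes between -2.66 and 3.14, ranges over unequal numbers of genes that were not compared by a test.

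Whether the line difference itself changed between early and late days was tested by an interaction term. No gene passed with edgeR or with DESeq2, and 130 of 16526 genes (0.787%) had an unadjusted p under 0.05 with edgeR. On simulated counts the edgeR fit recovered 12.0% of changes of 1 on the log2 scale and 68.7% of changes of 2, so real changes could be missed. IFI27 had the lowest unadjusted p of the members (0.0866, adjusted p = 1.00 after rounding) with an interaction of -1.18 (SE 0.62). In CPM, without the normalization factors of the fit, its log2 ratio of SW620-TET2CD over SW620 was 1.44 and 1.96 on days 6 and 9 and 1.43 and 0.19 on days 12 and 15.

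The bulk libraries gave levels per transcript length (TPM) for all 9 genes. ISG15 had the highest TPM of the 9 in 6 of 6 libraries. In the 4 libraries of day 15, ISG15 ranged from 91.8 to 145 TPM and IRF1 from 32.3 to 49.6, apart from each other and from the rest. OAS1 (5.29 to 10.7), IFI6 (5.84 to 10.6) and IFIH1 (5.22 to 6.84) overlapped, as did MX1 (1.71 to 3.60) and IFIT3 (2.32 to 3.07), and IFI27 (0.18 to 2.00) overlapped IFIT1 (0.19 to 0.26).

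On day 15, OAS1 was measured at 10.7 TPM inside and 10.4 TPM outside the colonies in SW620 and at 5.29 and 7.35 TPM in SW620-TET2CD. Both SW620-TET2CD libraries lay below both SW620 libraries. Its expected counts were 300, 272, 130 and 99 in the same order, so that the last 2 libraries rank differently in TPM and in counts. Reads of its overlapping antisense RNA may be among them. The log2 fold change between the lines from the counts was -1.30 (SE 0.27), which did not pass with edgeR (adjusted p = 0.113) and passed with DESeq2 (-1.30, adjusted p = 0.0354). No member of the 8 tested passed with edgeR, where 73 of 17722 genes (0.412%) were called, and OAS1 alone passed with DESeq2, where 709 (4%) were, and without a filter on low counts, where 2239 (7.1%) were. IFI27 had too few counts to be tested.

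IRF1 was measured at 32.3 TPM both inside and outside in SW620 and at 49.6 and 43.5 TPM in SW620-TET2CD, without overlap (log2 fold change 0.41, SE 0.12, edgeR adjusted p = 0.171). MX1 was measured at 1.71 and 2.04 TPM in SW620 and at 2.53 and 3.60 TPM in SW620-TET2CD, also without overlap (0.60, SE 0.29, adjusted p = 0.326). IFI6 was at 10.6 and 6.44 TPM in SW620 and at 6.82 and 5.84 TPM in SW620-TET2CD, where the lines overlapped. IFIH1 (6.84 and 6.5 against 5.54 and 5.22 TPM) and IFIT3 (3.07 and 2.74 against 2.32 and 2.41 TPM) were lower in SW620-TET2CD without overlap. Their log2 fold changes were -0.36 (SE 0.16, edgeR adjusted p = 0.294) and -0.34 (SE 0.25, edgeR adjusted p = 0.504). In the single-cell CPM of day 15 both were higher in SW620-TET2CD (log2 ratios 0.56 and 0.27). These ratios lack the normalization factors of the fits, about 0.951 for SW620 and 1.17 for SW620-TET2CD on that day. With those factors IFIH1 would stay higher, while the IFIT3 difference would be all but gone. The bulk values of ISG15 and IFIT1 were -0.02 and 0.09. The fit had 1 residual degree of freedom, since 4 libraries carried line and location. The 6 division markers were all lower in SW620-TET2CD in this comparison (median log2 fold change -1.09, none past the adjusted threshold), and their part in the members' values was not tested. In bulk RNA, fewer cells that express a gene and less RNA per cell cannot be told apart.

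IFI27 was at 0.41 and 0.37 TPM in SW620 inside and outside the colonies, at 0.18 TPM in SW620-TET2CD inside and at 2.00 TPM in SW620-TET2CD outside. These values rest on 5, 5, 2 and 37 expected counts, and the library from outside the SW620-TET2CD colonies stood apart from the other 3. That library also had the highest TET2 level, 124 TPM, where its counterpart from inside the colonies had 38.1 TPM and the SW620 libraries had 1.15 (inside) and 1.29 TPM (outside), and the part of this difference in the members' values was not tested. Between locations, no gene passed with edgeR and 1068 of 17722 (6.03%) had an unadjusted p under 0.05, while DESeq2 called 21 and none of them a member. ISG15 was lower outside the colonies than inside in both lines (129 and 101 TPM in SW620, 145 and 91.8 TPM in SW620-TET2CD), with a log2 fold change of -0.53 (SE 0.15, edgeR adjusted p = 0.772). Without a filter on low counts it passed (adjusted p = 0.0414), among 472 genes called (1.5%). With 1 library left out, the value ran from -0.78, without either SW620 library, to -0.29, without the SW620-TET2CD library from outside the colonies, and those fits allow no test. The 6 division markers were all higher outside (median log2 fold change 0.90, none past the adjusted threshold).

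**Figure D5:**
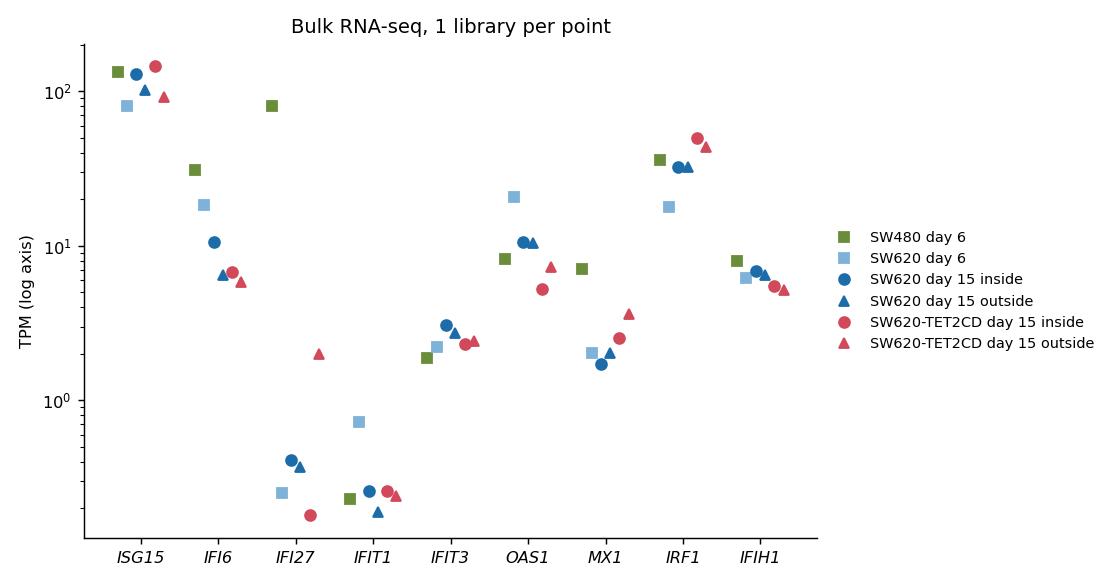
TPM on a log axis (vertical) for the 9 genes in the 6 bulk libraries, 1 library per point, with squares for whole cultures of day 6, circles for cells inside and triangles for cells outside the colonies on day 15. IFI27 is at 80.9 TPM in SW480 and at most 2.00 TPM in the other 5 libraries, and OAS1 is lower in both SW620-TET2CD libraries than in both SW620 libraries of day 15.

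On day 6 the whole cultures of SW480 and SW620, 1 library each, differed most in IFI27, at 80.9 TPM in SW480 (1131 expected counts) and 0.25 TPM in SW620 (5 counts). MX1 was at 7.06 and 2.04 TPM, IRF1 at 35.8 and 17.9 TPM, ISG15 at 134 and 80.8 TPM and IFI6 at 31.0 and 18.4 TPM in SW480 and SW620. OAS1 and IFIT1 went the other way, at 8.25 and 0.23 TPM in SW480 and 20.7 and 0.72 TPM in SW620. IFIT3 (1.88 and 2.20 TPM) and IFIH1 (7.95 and 6.22 TPM) were closer. These differences have no replicate check and were not tested.

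Across the 8 single-cell libraries the 9 genes varied by 1.61-fold (IFIT3) to 4.64-fold (IFI27) from the lowest to the highest library, and they did not vary together. Of their 36 pairs, 15 had a positive and 21 a negative Pearson r over the 8 libraries, from -0.82 (ISG15 with MX1) to 0.83 (IFIH1 with IFIT3). The genes whose log2 levels were most like the members' mean, among 8713 genes whose mean reached 8 CPM, were H3F3A (r = 0.98), HOXD9 (0.97), IDH1 (0.95), ASPSCR1 (0.95) and IDH2 (0.95). These are descriptions over libraries that share lines and days, with no test.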

How the data were processed

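The deposited single-cell matrices hold raw UMI counts per gene and barcode (10x 3′ v3.1, Cell Ranger 4.0 against GRCh38 per the labels). The deposited bulk tables hold the RSEM expected count and TPM that the authors computed per gene (TruSeq libraries, Bowtie per the processing notes). Those notes name mm10 for the bulk files, whereas their identifiers are human Ensembl genes, and the build behind them was not resolved. Kept cells had between 200 and 4500 genes, between 1000 and 20000 UMIs and a mitochondrial share of up to 10%, and their counts were summed per library. No doublet caller was run, and an alternative dropped the 8% of cells richest in UMIs. Sums and rounded expected counts were fitted with edgeR 4.0.16 (filterByExpr, TMM, quasi-likelihood test, two-sided, Benjamini-Hochberg over all tested genes, threshold 0.05), with day, line or location as a term, and with DESeq2 1.42.0 as an alternative. On simulated counts, the edgeR line fit recovered 93.9% of changes of 1 on the log2 scale, and the late-days fit 72.4%. For the same changes the interaction fit recovered 12.0%, the bulk line fit 68.4% and the bulk location fit 56.1%. A gene that was not called in these fits may thus still differ. SE is the log2 fold change over the square root of F. Bulk values cover 6 libraries, of which 4 entered the fit, and 45 rows for Y copies of pseudoautosomal genes were not used. Sign-flip permutation tests over 4 days or libraries were exact and two-sided. Intervals are exact Poisson intervals at 95% and cover counting error only. Promoter windows and motifs were read from RefSeq sequences, and positions from GENCODE 44.

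The 9 members and the pathway and marker lists were chosen with earlier results of these data known. All 9 members were examined in each comparison, though not every value is printed. From each pathway list, up to 4 genes with the highest and 4 with the lowest log2 fold change among those past the threshold in the line comparison are named, as are the 5 genes with a pattern most like the members'. Alternatives were upper-quartile factors, no filter on low counts, other limits on cells, cells without division markers, no block, SW620-TET2CD cells without a TET2 UMI, other thinning depths and each library left out. SW620-TET2CD cells with a TET2 UMI, and the TET2 split in SW620, were added after the data had been seen. Some genes of the pathway lists are not reported here.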

Additional observations from a re-analysis of the deposited data

Results flagged for a closer look

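In the bulk libraries of day 15, the ratio of SW620-TET2CD over SW620 pointed one way inside and the other way outside the colonies for 3 of the 9 genes. The difference was not tested, since each line and location has 1 library and the design leaves nothing over for an interaction. How many of all bulk genes did the same was not counted, so this number has no background beside it. For IFI27 the ratio of expected counts per library total was 0.476 inside, from 2 and 5 counts (exact 95% interval 0.0453 to 2.91), and 6.56 outside, from 37 and 5 counts (2.57 to 21.4), a difference of 3.78 on the log2 scale. For ISG15 it was 1.14 inside (1.05 to 1.24) and 0.863 outside (0.783 to 0.951), a difference of -0.40. For IFIT1 it was 0.973 inside (0.492 to 1.90) and 1.18 outside (0.575 to 2.48), a difference of 0.28, where both intervals include equal levels. These intervals cover counting error only.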

How the results depend on the processing

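No paired analysis was possible by replicate number, because each group had 1 library, and the lines were instead compared within days, by the day term and by differences per day. Of 609 recomputed values, 49 changed sign. None of the sign changes concerned a value past its threshold in the fits reported above. The cause of the changes was not tested. Genes called between the lines numbered 696 in the fit reported above, 1489 without a filter on low counts, 46 with no day term, 346 and 1626 with only SW620-TET2CD cells lacking or holding a TET2 UMI, and 416 to 680 with 1 library left out. The members past the threshold then numbered 0 with no day term and in cells lacking a TET2 UMI, 4 in cells holding one, 1 in cells without division markers and 0 to 2 with 1 library left out. Between late and early days, 5953 genes (41%) were called in cells without division markers, and the members past the threshold numbered 4 there. With upper-quartile factors 1 member passed, among 6250 genes called higher and 3636 lower of 16526. Without upper limits 1 passed, among 4931 higher and 4436 lower of 17419. With every barcode 0 passed, among 4864 higher and 4377 lower of 17601. With 1 library left out 0 to 3 passed, among 8127 to 10117 genes called. The interaction called 15 genes without a filter. Bulk line calls numbered 73 as reported, 709 with DESeq2, 178 with upper-quartile factors (103 higher and 75 lower, against 51 and 22) and 2239 without a filter, with 1 member with DESeq2 and 1 without a filter. Bulk location calls numbered 21 with DESeq2 and 472 without a filter, with 1 member in the latter.

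Single-cell log2 fold changes that changed sign between the lines were IFI6 (0.11), IFIT3 (0.065) and IFIT1 (0.16) in cells without division markers, MX1 (-0.12) and IFIH1 (-0.0059) in cells lacking a TET2 UMI, and, with 1 library left out, IFI6 (-0.21 to 0.051) and IFIH1 (-0.044 to 0.15). Between late and early days they were IFIT3 (0.093), OAS1 (0.17) and IFI27 (0.0075) with upper-quartile factors, IFI27 (0.019) without upper limits, OAS1 (0.054) without the 8% of cells richest in UMIs and with no line term (0.0013), and ISG15 (-0.21) in cells without division markers. With 1 library left out, the late values of IFI27 ran from -0.63 to 0.021, of IFIT3 from -0.22 to 0.033, of ISG15 from -0.12 to 0.20 and of OAS1 from -0.15 to 0.13. In the TET2 split, IFI6 changed sign with 2 or more TET2 UMIs (-0.0082) and after thinning (-0.15), IRF1 after thinning (0.057) and in SW620 (0.10), and IFIT1 (0.97) and IFIT3 (0.020) in SW620. With 1 library left out, the split gave IFI6 from -0.0059 to 0.19, IFIT1 from -0.66 to 0.18, IFIT3 from -0.16 to 0.043 and IRF1 from -0.051 to 0.052. In bulk, where leaving out a library allows no test, the line values of ISG15 ran from -0.26 to 0.22 and of IFIT1 from -0.012 to 0.19, and the location values of IRF1 from -0.26 to 0.016 and of OAS1 from -0.73 to 0.033. After thinning, IFI27 and IFIT1 had no UMI in a group of at least 1 library, and IFIT1 likewise with 2 or more TET2 UMIs, so no value could be given.

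Depth limits IFIT1 and IFI27 most, at 20 to 60 and 25 to 166 UMIs per library, and IFI27 in bulk.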
